A study of Mus musculus with 18 samples.

Results

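Tgfb1, Pdgfrb, Lrat, Reln, Acta2, Des, Lox, Mmp2, Timp1 and Timp2 are genes of hepatic stellate cells and of the scar tissue these cells form. They were chosen by name, and all probes assigned to them were read, which gave 12 of the 39429 probes and 10 of the 21153 genes on the array. Lox and Timp2 each have 2 probes, and the gene is read on the brighter one unless the other is named.

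Hepatic stellate cells lie between the hepatocytes and the sinusoidal endothelium, and in a healthy liver they store vitamin A as retinyl esters. When the liver is injured they give up these stores, respond to TGF-β and PDGF, take on contractile filaments with α-smooth muscle actin, and lay down collagen together with the enzymes that cross-link and degrade it. Fatty liver and long methotrexate use are both known as settings in which such scarring can develop.

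Liver RNA came from 18 male C57BL/6 mice, each hybridized to 1 one-colour Agilent whole-genome array. From 6 weeks of age the mice ate a diet with 10% fat (LFD) or 60% fat (HFD), and 4 mice on each diet received no treatment. In the LFD-MTX50 and HFD-MTX50 groups, with 5 mice each, methotrexate at 50 mg/kg was given intraperitoneally 5 times, starting after 10 weeks of feeding, and the livers were collected 1 week after the last injection. The labels name no vehicle injection for the untreated mice, so the drug and the injections cannot be told apart, and the RNA is that of whole liver, in which fewer cells of a type and less RNA per cell cannot be told apart either. Each array measures a separate mouse, per the study, and the number of arrays limits the precision of every comparison.

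A level is the log2 intensity of a probe minus the 75th percentile of its array, so that 0 is the 75th percentile and -4 lies 4 doublings under it. That percentile was 1203 to 2263 intensity units, and between 83.9 and 90.6% of the probes of an array were well above background. The LFD arrays fill 1 slide that holds no other group, and so do the slides of LFD-MTX50, so in the comparisons with LFD a slide effect and a group effect cannot be told apart. HFD and HFD-MTX50 share 1 slide, with HFD replicates 3 and 4 and HFD-MTX50 replicates 1 and 2. Hepatocyte markers were above background on every array (8 of 8 genes), and 9 of the 10 genes had a probe above background on all 18 arrays. The exception was Des, above background on 16, with 3 of 5 in HFD-MTX50.

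The question put to HFD vs LFD was how the diet alone changed these genes. In HFD livers 5 of the 10 genes rose and 0 fell at an adjusted p below 0.05 (limma, Benjamini-Hochberg over all probes), against a background of 18% of the 19596 tested genes higher and 10.4% lower. The risen genes were Lox (2.00-fold), a collagen cross-linking enzyme, Mmp2 (1.72-fold), a gelatinase, Acta2 (1.41-fold), the smooth muscle actin of activated stellate cells, Timp1 (1.39-fold), a protease inhibitor, and Tgfb1 (1.36-fold), a fibrogenic cytokine. Among genes of similar brightness the share that rose was 30.4% for Lox and Mmp2, 32.7% for Tgfb1, 28.4% for Timp1 and 8.58% for Acta2. None of the 10 changed by more than 2-fold. All 5 calls were lost with the slide as a random block (limma adjusted p 0.10 to 0.18), and 0 remained without LFD replicate 2, HFD replicate 3 or HFD replicate 4. The median difference of the 10 genes was 0.43 on the log2 scale, beside 0.08 for all genes. It was 0.16 after the median of genes of similar brightness was taken off each gene, and 6 of the 10 lay above that median.

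HFD-MTX50 vs HFD asks what methotrexate did in mice that stayed on the high fat diet. Of the 10 genes 0 passed, in limma and in an unmoderated equal-variance test per probe with the same adjustment, and 5 had an unadjusted p below 0.05 in limma (Acta2, Mmp2, Reln, Des and Lox). The estimates of 9 genes were below 0 and that of Timp1 was above, with a median of -0.38 beside -0.04 for all genes. The medians of genes of similar brightness were -0.18 to 0.04, and taking them off left a median of -0.23. No share of all genes is given for the signs or the unadjusted p, so neither count is read as a result about the 10 genes. At an adjusted p below 0.05 the background here was 4.83% of genes higher and 6.13% lower. The adjusted p nearest to the threshold was that of Acta2 (0.073), with a difference of -0.38 ± 0.13 (SE).

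LFD-MTX50 vs LFD puts the same question to lean mice. Des (1.48-fold), the intermediate filament of stellate cells and muscle, and Tgfb1 (1.42-fold) rose and 0 genes fell, against a background of 17.6% of genes higher and 10.5% lower. Among genes of similar brightness 27.2% rose for Des and 30.8% for Tgfb1. The median of the 10 genes was 0.23, beside 0.10 for all genes, and 0.012 after the median of genes of similar brightness was taken off each. For 3 genes, Des, Tgfb1 and Reln, the effect of methotrexate differed between the diets and was lower in HFD than in LFD mice. Of all genes 18.1% differed in that direction and 8.66% in the other. With the slide as a random block only Des of these passed (limma adjusted p 0.047).

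**Figure D1:**
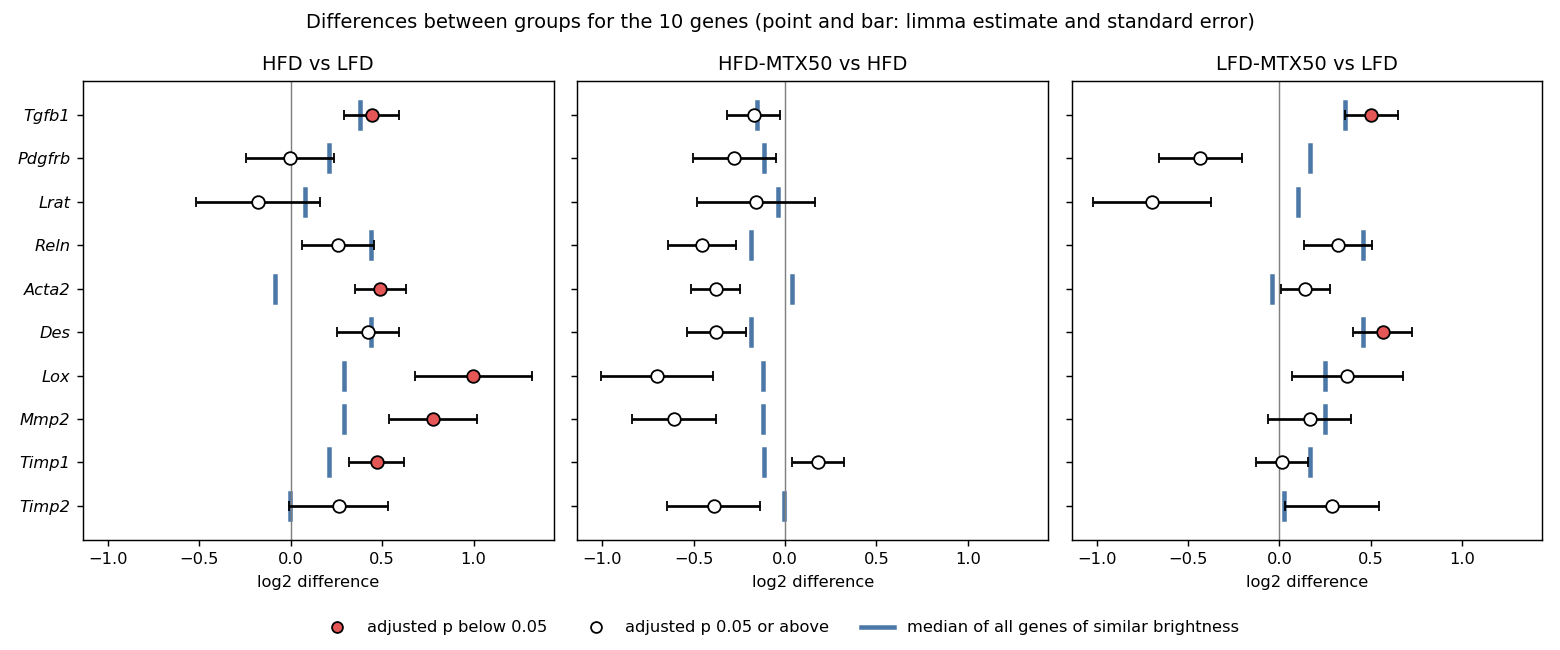
Log2 differences between groups (horizontal axis) for the 10 genes (vertical axis) in the 3 comparisons, with the limma estimate as a point, its standard error as a bar, red points for an adjusted p below 0.05 and a blue mark for the median of all genes of similar brightness. Lox at 1.00 and Mmp2 at 0.78 lie farthest right in HFD vs LFD, and none of the points is red in HFD-MTX50 vs HFD.

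These differences have to be read against the brightness of the probes, because on the main scale the difference of the typical gene moved with its signal. All tested genes were sorted into bands 1 log2 unit wide by their mean level over the 18 arrays. In HFD vs LFD the median difference was 0.44 for levels from -6 to -5, 0.29 from -4 to -3, 0.00 from -1 to 0 and -0.17 above 1. The lean comparison fell likewise with brightness, and its medians went from 0.46 in the band of -6 to -5 to -0.11 above 1, and in HFD-MTX50 vs HFD the medians increased, from -0.18 to 0.07. The difference between the treatment effects ran from -0.63 to 0.20 over the same bands. For the 10 genes its median was -0.68, and -0.25 after the band medians were taken off. Most of the 10 genes are read by dim probes, so the median of a gene's own band is given beside its difference as a description, without a test. Quantile normalization, which gives every array the same distribution of signals, moved the median of all probes from 0.12 to 0.02 for the diet and from 0.16 to 0.03 for methotrexate in lean mice, and under it Acta2 was the only one of the 10 genes to pass in HFD vs LFD and 0 passed in the other comparisons.

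**Figure D2:**
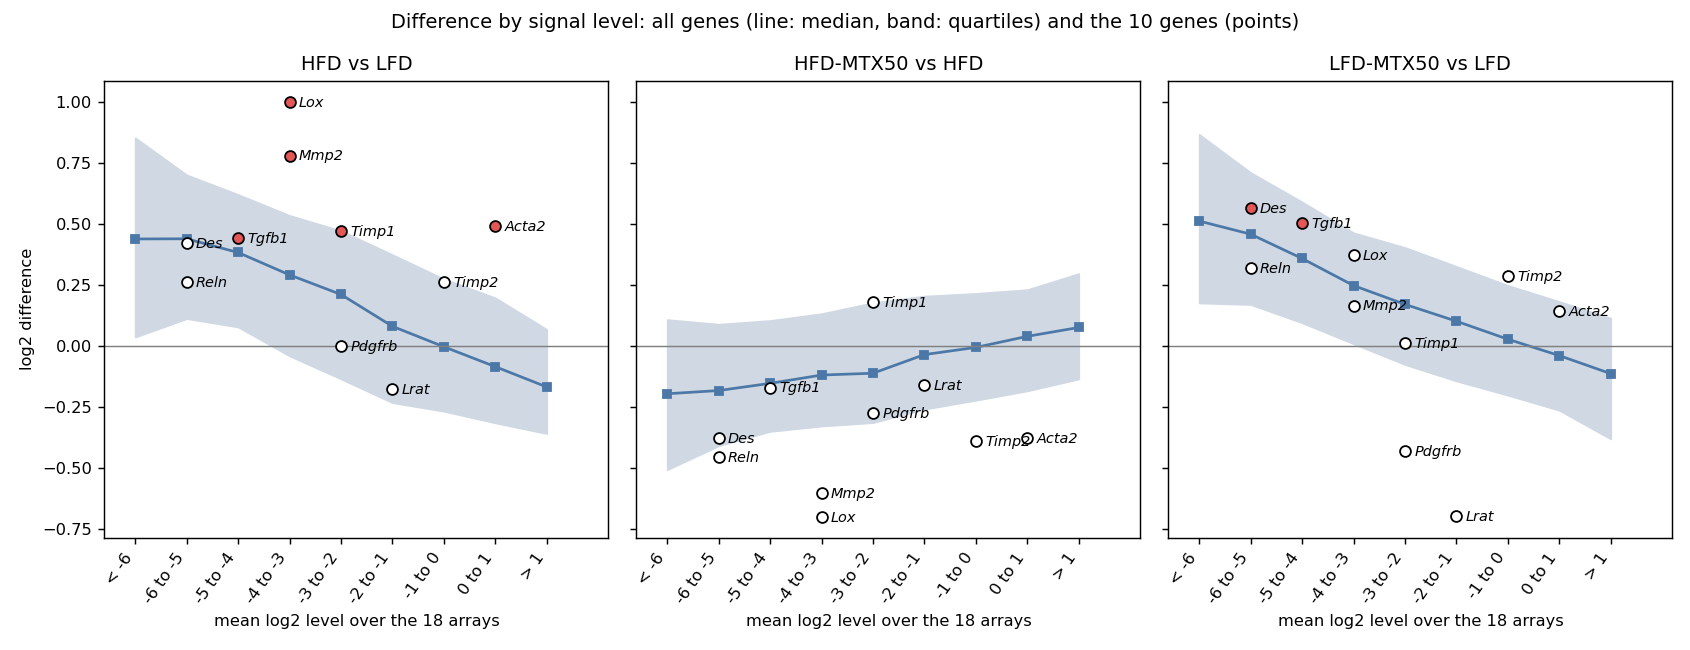
Log2 difference (vertical axis) by mean log2 level over the 18 arrays in bands (horizontal axis), with the median of all tested genes as a line, their quartiles as a shaded band and the 10 genes as points, red for an adjusted p below 0.05. In HFD vs LFD Lox, Mmp2 and Acta2 lie above the shaded quartiles, whereas Tgfb1 at 0.44 lies close to the median of 0.38 and Des at 0.42 close to the median of 0.44.

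Tgfb1 (chromosome 7) encodes TGF-β1, the cytokine that drives stellate cells to make collagen. Its levels were -4.23, -4.62, -4.19 and -4.34 in the LFD mice and -4.19, -3.93, -3.64 and -3.85 in the HFD mice. In HFD-MTX50 they were -3.85, -4.03, -4.22, -4.24 and -4.03, and in LFD-MTX50 -4.05, -3.67, -3.52, -3.84 and -4.13. HFD and LFD overlapped only by the level of HFD replicate 1, which was equal to the highest LFD level to 2 decimals, and all 5 LFD-MTX50 mice lay above every LFD mouse, as held for 17.6% of all genes.

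Between HFD and LFD mice the Tgfb1 difference was 0.44 ± 0.15 (SE, limma adjusted p 0.039, exact permutation p 0.057), with a band median of 0.38. LFD-MTX50 vs LFD gave 0.50 ± 0.14 (limma adjusted p 0.018, exact permutation p 0.016), where the band median was 0.36. Under quantile normalization these became 0.16 (limma adjusted p 0.37, range over the alternatives 0.034 to 0.43) and 0.21 (0.24, range 0.015 to 0.24). HFD-MTX50 vs HFD was -0.17 ± 0.14 (limma adjusted p 0.43) and -0.19 on the shared slide. The diet call was lost in 10 of 15 alternatives and without each of LFD replicates 2 and 4 and HFD replicates 2, 3 and 4.

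The promoters of Acta2, Tgfb1 and Timp1 are shown because these members rose in HFD vs LFD and their promoter was in the table of RefSeq sequences (GRCm38.p6). Capitals mark matches on either strand to CCTATATGG, to CATTCC and to GGGCGG. The first holds letters of a CArG element of the Acta2 promoter itself, a kind of element that serum response factor binds. CATTCC is the MCAT element bound by TEAD factors, and GGGCGG is the GC box bound by Sp1. CArG-like stretches with other letters are not marked. No match overlaps another. Each line holds the 250 bases before the transcription start, at chr19:34255374-34255623 on the minus strand for Acta2, chr7:25686752-25687001 on the plus strand for Tgfb1 and chrX:20869916-20870165 on the plus strand for Timp1.
Acta2: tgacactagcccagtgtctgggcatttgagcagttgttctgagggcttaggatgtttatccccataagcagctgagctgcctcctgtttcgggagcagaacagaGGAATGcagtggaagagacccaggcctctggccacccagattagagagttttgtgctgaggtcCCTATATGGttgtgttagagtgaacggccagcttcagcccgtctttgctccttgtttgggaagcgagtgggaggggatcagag
Tgfb1: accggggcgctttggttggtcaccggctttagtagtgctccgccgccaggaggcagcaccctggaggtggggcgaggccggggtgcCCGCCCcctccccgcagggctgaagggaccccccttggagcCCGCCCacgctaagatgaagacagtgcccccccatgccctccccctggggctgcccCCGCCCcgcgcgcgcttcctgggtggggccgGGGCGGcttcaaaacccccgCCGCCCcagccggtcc
Timp1: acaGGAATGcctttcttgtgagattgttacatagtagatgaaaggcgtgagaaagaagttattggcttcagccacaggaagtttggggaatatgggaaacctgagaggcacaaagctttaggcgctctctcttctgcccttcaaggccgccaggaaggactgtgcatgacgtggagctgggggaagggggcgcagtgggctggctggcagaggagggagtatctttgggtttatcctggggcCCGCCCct
The CArG letters were taken from Acta2, so that its match there was given, and it stands at bases -83 to -75. They occur in 0.0487% of 32851 mouse promoters of this length. An MCAT element was found in Acta2 and in Timp1, and 12.6% of all promoters hold one. The GC box, held by 32.7% of promoters, occurred 5 times in Tgfb1, 1 time in Timp1 and not in Acta2. These motifs were chosen after a first search of the 7 members with a printable promoter, in which the general CArG box, the AP-1 site and the TATA box matched 0 of them, against 1.47, 4.46 and 15.6% of all promoters. These are letter matches and the arrays hold no measurement of binding.

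Pdgfrb (chromosome 18) is the receptor through which PDGF makes stellate cells divide and move. Its levels were -2.22, -2.23, -1.95 and -1.96 in LFD and -2.32, -2.02, -1.72 and -2.32 in HFD. The treated mice read -2.81, -2.13, -3.30, -2.02 and -2.36 in LFD-MTX50 and -2.27, -2.86, -2.36, -2.30 and -2.05 in HFD-MTX50. The HFD mice lay on both sides of the LFD mice, and LFD-MTX50 replicates 1 and 3 were the lowest of their group.

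Pdgfrb passed in none of the comparisons. Its differences were 0.00 ± 0.24 for HFD vs LFD (limma adjusted p 0.996, band median 0.21), -0.28 ± 0.23 for HFD-MTX50 vs HFD (limma adjusted p 0.42) and -0.43 ± 0.23 for LFD-MTX50 vs LFD (limma adjusted p 0.15, band median 0.17). HFD-MTX50 vs HFD gave -0.55 within the shared slide and -0.071 between the others. Without LFD-MTX50 replicate 3 the lean estimate was -0.24.

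Lrat (chromosome 3) encodes the enzyme that esterifies retinol for storage and marks quiescent stellate cells. Levels of -0.89, -1.14, -0.48 and -0.20 were found in LFD and of -1.68, -0.68, -0.07 and -0.997 in HFD. LFD-MTX50 mice read -1.66, -0.89, -1.84, -1.30 and -1.18, and HFD-MTX50 mice -0.49, -1.85, -1.29, -0.56 and -0.90. The LFD-MTX50 group was the lowest, with 4 of its 5 mice under all LFD mice, while the HFD mice spread over nearly the whole range of the 18 mice.

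The lean difference of Lrat was -0.70 ± 0.32 (limma adjusted p 0.11, exact permutation p 0.040), and its band median was 0.10. For HFD vs LFD it was -0.18 ± 0.34 (limma adjusted p 0.71) and for HFD-MTX50 vs HFD -0.16 ± 0.32 (limma adjusted p 0.76). The latter turned with the slide, from -0.64 within the shared slide to 0.26 between the others. The diet estimate changed sign to 0.09 without HFD replicate 1.

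Reln (chromosome 5) encodes reelin, a secreted glycoprotein of brain development that stellate cells also make. In LFD its levels were -5.52, -5.41, -5.39 and -5.21, and in HFD -5.36, -5.14, -4.71 and -5.29. In LFD-MTX50 they were -5.32, -4.88, -4.45, -5.35 and -5.31, and in HFD-MTX50 -5.59, -5.96, -5.55, -5.48 and -5.30. Of the HFD-MTX50 mice 4 lay below all HFD mice, and HFD-MTX50 replicate 5 lay between HFD replicates 1 and 4.

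The Reln effect of methotrexate was -0.46 ± 0.19 in HFD mice (limma adjusted p 0.11, exact permutation p 0.024) and 0.32 ± 0.19 in LFD mice (limma adjusted p 0.20). In HFD mice it was -0.78 within the shared slide and -0.20 between the arrays of the other slides. The difference between these effects was -0.77 ± 0.26 (limma adjusted p 0.038), where the median of its band was -0.63. It was -0.24 under quantile normalization (limma adjusted p 0.51, range over the alternatives 0.033 to 1.00), and the call was lost in 7 of 13 alternatives and without each of 11 of the 18 arrays. For HFD vs LFD the difference was 0.26 ± 0.20 (limma adjusted p 0.32), below the band median of 0.44.

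Acta2 (chromosome 19) encodes α-smooth muscle actin, the usual mark of an activated stellate cell, which vascular smooth muscle also makes. In LFD mice the levels were -0.06, -0.19, -0.07 and -0.01, and in HFD mice 0.23, 0.18, 0.51 and 0.71. HFD-MTX50 mice read 0.10, 0.30, 0.11, -0.01 and -0.35, and LFD-MTX50 mice -0.13, -0.06, 0.13, 0.06 and 0.28. The HFD and LFD mice did not overlap, which held for 24% of all genes in that direction. Of the HFD-MTX50 mice 4 lay below every HFD mouse and replicate 2 lay above HFD replicates 1 and 2.

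Acta2 averaged -0.08 ± 0.08 (SD, n = 4) in LFD and 0.41 ± 0.25 (n = 4) in HFD, a difference of 0.49 ± 0.14 (SE, limma adjusted p 0.019, exact permutation p 0.029, the smallest that 4 against 4 mice allow). Genes of its brightness had a median of -0.09, and 8.58% of them rose. Quantile normalization left the difference at 0.50 (limma adjusted p 0.025, range over the alternatives 0.015 to 0.29). The call was lost with normexp background modelling (0.38), with the slide as a random block (0.47, limma adjusted p 0.10), under either 2-fold threshold, and without LFD replicate 2 or HFD replicate 3 or 4.

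With methotrexate the level of Acta2 was 0.03 ± 0.24 (n = 5) on the high fat diet, a difference from HFD of -0.38 ± 0.13 (limma adjusted p 0.073, exact permutation p 0.048). The arrays of the shared slide alone gave -0.42. It passed without HFD-MTX50 replicate 2 (limma adjusted p 0.042). In lean mice the level was 0.06 ± 0.16 (n = 5) and the difference 0.14 ± 0.13 (limma adjusted p 0.44). The treatment effects of the diets differed by -0.52 ± 0.19 (limma adjusted p 0.0504), and this passed in 4 of 13 alternatives.

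Smooth muscle and pericyte markers, which share Acta2 with stellate cells, had 1 gene of 9 tested that rose in HFD vs LFD and 0 that fell. In HFD-MTX50 vs HFD 0 rose and 1 fell, and in LFD-MTX50 vs LFD 3 rose and 1 fell. The shares of all genes were 18, 4.83 and 17.6% higher and 10.4, 6.13 and 10.5% lower. The medians of the list were 0.36, -0.38 and 0.50 in the 3 comparisons and -0.62 for the difference between diets, beside 0.43, -0.38, 0.23 and -0.68 for the 10 genes. The gene that rose in HFD vs LFD was Myh11, a smooth muscle myosin (0.68 ± 0.19, limma adjusted p 0.019, band median 0.38), and it rose in LFD-MTX50 vs LFD too (0.80 ± 0.18, limma adjusted p 0.0069). Under quantile normalization Myh11 no longer passed in HFD vs LFD (limma adjusted p 0.11). The summed level of 10 markers was 10.5 to 11.6 in LFD, 11.1 to 11.8 in HFD, 10.2 to 12.5 in LFD-MTX50 and 9.87 to 15.3 in HFD-MTX50, in units of the 75th percentile. Of these markers 8 were above background on all 18 arrays and Lmod1 on none of the HFD, LFD-MTX50 and HFD-MTX50 arrays. The part of smooth muscle cells in the Acta2 difference was not tested.

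Des (chromosome 1) encodes desmin, a filament of stellate cells and muscle. Its levels in LFD were -6.18, -6.26, -6.31 and -6.28, and in LFD-MTX50 -5.91, -5.78, -5.28, -5.85 and -5.67. HFD mice read -6.14, -6.01, -5.47 and -5.74, and HFD-MTX50 mice -5.78, -6.20, -6.28, -6.28 and -6.54. Every LFD-MTX50 and every HFD mouse lay above the LFD mice, as held for 17.6% and 24% of all genes. In HFD-MTX50 replicate 1 alone lay above the LFD mice.

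Des rose in LFD-MTX50 vs LFD by 0.56 ± 0.16 (limma adjusted p 0.018, exact permutation p 0.0079, the smallest that 4 against 5 mice allow), where the band median was 0.46 and 27.2% of the genes of that band rose. HFD vs LFD gave 0.42 ± 0.17 (limma adjusted p 0.071, band median 0.44) and HFD-MTX50 vs HFD -0.38 ± 0.16 (limma adjusted p 0.12, band median -0.18). The treatment effects of the diets differed by -0.94 ± 0.23 (limma adjusted p 0.010, band median -0.63). The mean level of Des was -5.998, at the edge of its band at -6. In the next dimmer band the median was 0.51 in LFD-MTX50 vs LFD, where 17.1% rose, and -0.73 for the difference between diets. Quantile normalization brought the lean difference to 0.11 (limma adjusted p 0.54, range over the alternatives 0.012 to 0.54) and that between the diets to -0.31 (0.20, range 0.0094 to 1.00). Both calls held without each of the 18 arrays in turn.

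Lox (chromosome 18) encodes lysyl oxidase, which cross-links collagen and elastin. The brighter probe read -3.80, -3.86, -3.89 and -4.56 in LFD and -3.42, -2.97, -2.90 and -2.82 in HFD. In HFD-MTX50 it read -3.09, -3.19, -3.64, -3.83 and -4.90, and in LFD-MTX50 -4.01, -3.59, -3.02, -3.95 and -3.71. HFD and LFD did not overlap, as held for 24% of all genes with HFD higher. The HFD-MTX50 mice spread from the HFD range to below all other mice.

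Lox rose in HFD vs LFD by 1.00 ± 0.32 (limma adjusted p 0.030, exact permutation p 0.029), with a band median of 0.29. Under quantile normalization it was 0.76 (limma adjusted p 0.069, range over the alternatives 0.0088 to 0.40), and the call was lost without each of LFD replicates 2 and 4 and HFD replicates 2, 3 and 4. HFD-MTX50 vs HFD was -0.70 ± 0.30 (limma adjusted p 0.13, exact permutation p 0.095). That difference was -0.28 on the shared slide and -0.93 between the arrays of the other slides. LFD-MTX50 vs LFD was 0.37 ± 0.30 (limma adjusted p 0.36).

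The second Lox probe was above background on 0 of 4 LFD, 2 of 5 LFD-MTX50, 3 of 4 HFD and 3 of 5 HFD-MTX50 arrays. It read -7.63, -6.69, -7.53 and -7.73 in LFD, -6.69, -6.52, -5.75, -7.22 and -5.60 in LFD-MTX50, -7.33, -6.35, -6.18 and -6.07 in HFD and -6.59, -6.06, -6.83, -6.56 and -7.35 in HFD-MTX50. Signals not above background reached -5.75, in LFD-MTX50 replicate 3, so no fold or call is given for this probe.

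Mmp2 (chromosome 8) encodes gelatinase A, which activated stellate cells secrete. Its levels were -4.04, -4.44, -4.11 and -4.05 in LFD and -3.98, -3.36, -3.02 and -3.18 in HFD. The treated mice read -3.67, -3.90, -3.73, -4.07 and -4.56 in HFD-MTX50 and -4.46, -3.85, -4.40, -3.65 and -3.62 in LFD-MTX50. HFD replicate 1 stood just above the LFD mice and the other HFD mice well above them, and no HFD-MTX50 mouse reached those 3. A lack of overlap with HFD above LFD held for 24% of all genes.

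Mmp2 rose in HFD vs LFD by 0.78 ± 0.24 (limma adjusted p 0.026, exact permutation p 0.029, band median 0.29). The difference was 0.53 under quantile normalization (limma adjusted p 0.13, range over the alternatives 0.019 to 0.43), and the call was lost without LFD replicate 2 or HFD replicate 3 or 4. For HFD-MTX50 vs HFD it was -0.61 ± 0.23 (limma adjusted p 0.087, exact permutation p 0.063, band median -0.12). It was -0.69 within the shared slide, and it passed without HFD replicate 1 (-0.80, limma adjusted p 0.028). LFD-MTX50 vs LFD gave 0.16 ± 0.23 (limma adjusted p 0.60).

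Timp1 (chromosome X) encodes an inhibitor of matrix metalloproteinases that rises in scarring liver. It read -2.81, -3.03, -2.76 and -2.83 in LFD and -2.63, -2.47, -2.22 and -2.23 in HFD. HFD-MTX50 mice read -1.96, -1.95, -2.31, -2.36 and -2.45, and LFD-MTX50 mice -2.77, -3.08, -2.67, -3.13 and -2.58. All HFD mice lay above every LFD mouse, which held for 24% of all genes. The LFD-MTX50 mice lay around the LFD mice.

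Timp1 rose in HFD vs LFD by 0.47 ± 0.15 (limma adjusted p 0.029, exact permutation p 0.029, band median 0.21). Under quantile normalization the difference was 0.29 (limma adjusted p 0.092, range over the alternatives 0.016 to 0.42). Leaving out LFD replicate 2 or 4 or HFD replicate 3 or 4 lost the call. It was the only one of the 10 genes with an estimate above 0 in HFD-MTX50 vs HFD, 0.18 ± 0.14 (limma adjusted p 0.40, 0.27 on the shared slide). In lean mice the difference was 0.01 ± 0.14 (limma adjusted p 0.96).

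Timp2 (chromosome 11) encodes an inhibitor that also takes part in the activation of the Mmp2 protein. Its brighter probe read -0.32, -0.24, -0.24 and 0.18 in LFD, -0.45, 0.09, 0.53 and 0.27 in HFD, -0.73, 0.36, -0.09, 0.84 and 0.28 in LFD-MTX50 and -0.30, -0.65, -0.38, -0.08 and -0.01 in HFD-MTX50. All groups overlapped. It passed in none of the comparisons, with 0.26 ± 0.27 for HFD vs LFD (limma adjusted p 0.47), -0.39 ± 0.26 for HFD-MTX50 vs HFD (0.30) and 0.29 ± 0.26 for LFD-MTX50 vs LFD (0.40). The second of these was -0.87 within the shared slide and 0.026 between the others.

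The second Timp2 probe gave other calls. It read -3.43, -3.94, -3.21 and -3.23 in LFD, -3.14, -2.79, -2.51 and -2.85 in HFD, -3.35, -2.58, -2.64, -2.42 and -2.73 in LFD-MTX50 and -2.97, -3.10, -3.38, -3.11 and -3.01 in HFD-MTX50. HFD and LFD did not overlap on it, as held for 24% of all genes with HFD higher, and 4 of 5 LFD-MTX50 mice lay above the LFD mice. It rose by 0.63 ± 0.20 in HFD vs LFD (limma adjusted p 0.027) and by 0.71 ± 0.19 in LFD-MTX50 vs LFD (limma adjusted p 0.013), with band medians of 0.29 and 0.25. Both calls were lost under quantile normalization (limma adjusted p 0.11 and 0.058) and when slides were random blocks (0.15 and 0.13). The difference between the treatment effects was -1.0 ± 0.26 (limma adjusted p 0.014).

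**Figure D3:**
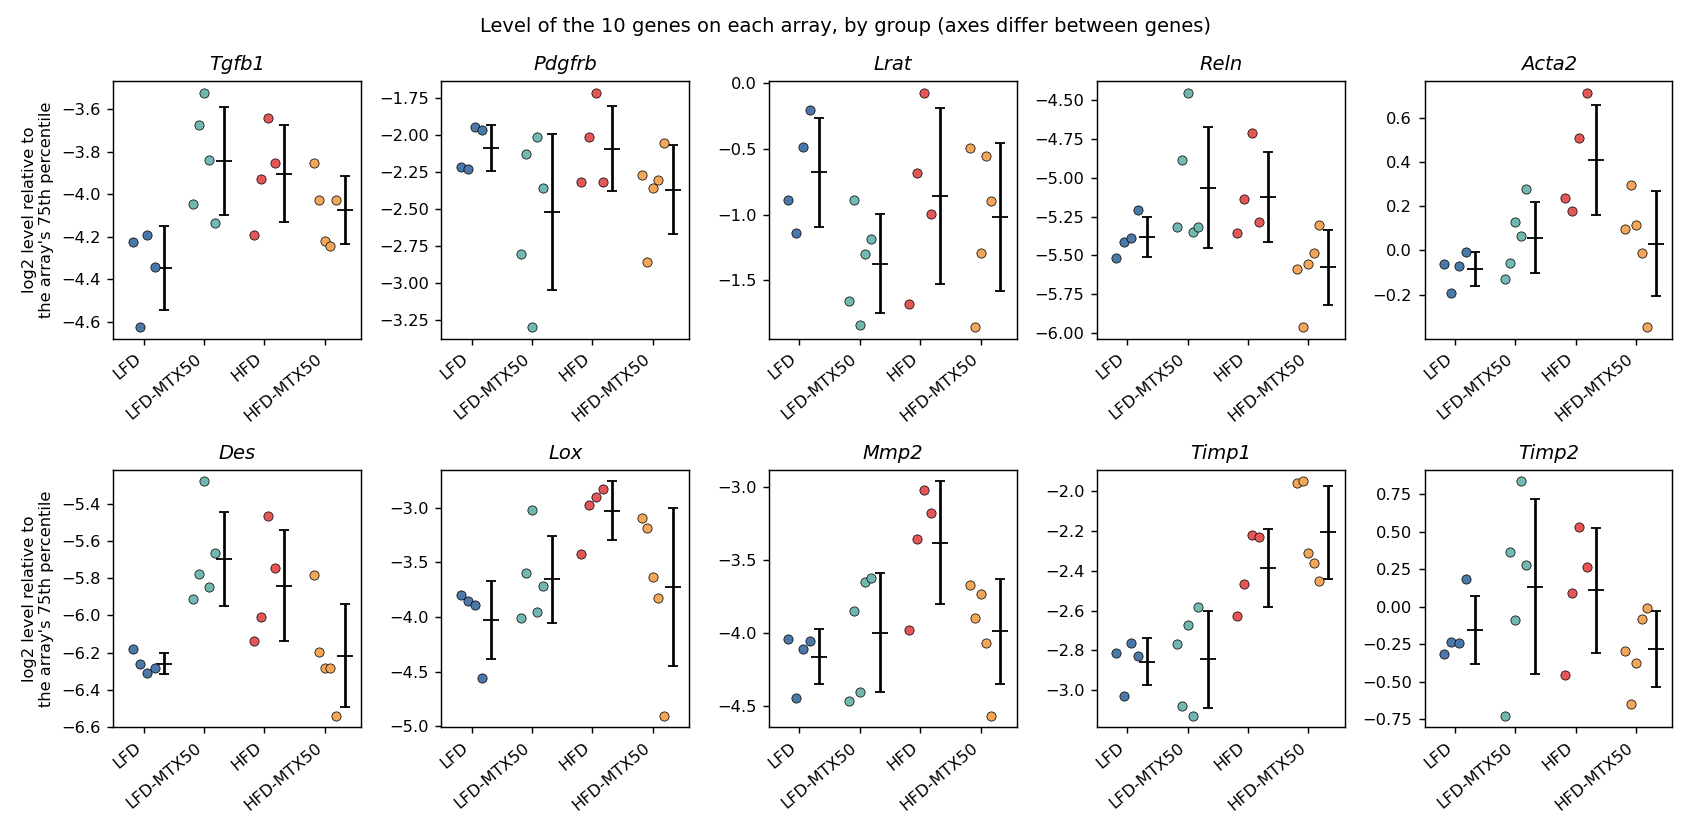
Level of each of the 10 genes (vertical axes, log2 relative to the array's 75th percentile, with a separate scale per gene) in the 4 groups (horizontal axes), with 1 point per mouse and the mean ± SD beside the points. HFD mice lie above all LFD mice for Acta2 (0.18 to 0.71 against -0.19 to -0.01) and likewise for Des, Lox, Mmp2 and Timp1. The same held for 24% of all genes, and Des did not pass (limma adjusted p 0.071).

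Over the 18 arrays several pairs of members varied together, which is a description that shares the scaling of the arrays. The pairs do not form separate sets, since Lox went with both Acta2 and Des, and Des with Acta2 (Pearson r 0.56). Acta2 correlated with Mmp2 (Pearson r 0.82) and Lox (0.78), and Mmp2 with Lox (0.65). Des correlated with Tgfb1 (0.77), Reln (0.66) and Lox (0.66). Lrat and Pdgfrb correlated with each other (0.80), with Acta2 at -0.01 and -0.04, and with Mmp2 at 0.37 and 0.42. Among 19399 other genes those nearest to Acta2 were Gtf2h3 (0.93), Hpcal4 (0.91) and Depdc5 (0.90), and those nearest to Mmp2 were Atp6v0a4 (0.92), C1qtnf5 (0.91) and Trh (0.88). For Lox they were Tcstv1 (0.95), C86187 (0.93) and Cpt1b (0.93), for Timp1 Hsh2d (0.89), Ly75 (0.87) and Mad2l1 (0.87), and for Reln Tbl3 (0.85), Pdlim1 (0.83) and Fam180a (0.81). Des was nearest to Rin1 (0.96), Myrf (0.95) and Slc12a3 (0.95), and Tgfb1 to Nxpe4 (0.94), Clec4a1 (0.94) and Usp26 (0.91).

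Other genes of the TGF-β pathway rose and fell. In HFD vs LFD 2 of 22 rose and 3 fell, in HFD-MTX50 vs HFD 4 rose and 1 fell, and in LFD-MTX50 vs LFD 4 rose and 2 fell, with medians of -0.07, -0.02 and -0.03 beside 0.08, -0.04 and 0.10 for all genes. Under quantile normalization the counts were 0 and 4, 6 and 1, and 3 and 3. Beside the counts of this and the following lists stand the shares of all genes in the 3 comparisons. These were 18, 4.83 and 17.6% higher and 10.4, 6.13 and 10.5% lower. Smad3, which carries the TGF-β signal to the nucleus, fell by 0.89 ± 0.13 in HFD vs LFD (limma adjusted p 0.0024), rose by 0.52 ± 0.12 in HFD-MTX50 vs HFD (limma adjusted p 0.020) and fell by 0.51 ± 0.12 in LFD-MTX50 vs LFD (limma adjusted p 0.0091). Its calls held under quantile normalization. Skil, a repressor of Smad signalling, rose with methotrexate on either diet (0.77 ± 0.21 on HFD, limma adjusted p 0.033, and 0.66 ± 0.21 on LFD, limma adjusted p 0.032). In lean mice Smad7, an inhibitory Smad, rose by 1.27 ± 0.32 (limma adjusted p 0.011) and Bmp7, a ligand of the same family, fell by 1.31 ± 0.28 (limma adjusted p 0.0052).

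Of the other 5 PDGF genes Pdgfa, a ligand, fell in LFD-MTX50 vs LFD by 0.75 ± 0.25 (limma adjusted p 0.034), and the others passed in none of the 3 comparisons between groups. The treatment effects of the diets differed for Pdgfb, a ligand named after its values were seen (1.52 ± 0.46, limma adjusted p 0.025), a call that quantile normalization lost (0.055). Among 22 genes of retinoid storage and quiescent stellate cells 2 rose and 1 fell in HFD vs LFD, 1 rose and 1 fell in HFD-MTX50 vs HFD, and 6 rose and 0 fell in LFD-MTX50 vs LFD. The medians of these 22 genes were -0.06, -0.01 and 0.08 in the same order, beside 0.08, -0.04 and 0.10 for all genes. The genes named next are single members of that list. Pnpla3, a lipase that acts on retinyl esters and triglycerides, fell in HFD vs LFD by 3.18 ± 0.93 (limma adjusted p 0.020) and was above background on 15 of 18 arrays. Hgf, the hepatocyte growth factor that stellate cells secrete, rose with methotrexate by 0.56 ± 0.15 on HFD (limma adjusted p 0.029) and by 0.88 ± 0.15 on LFD (limma adjusted p 0.0018). Gfap, a filament of stellate cells in rodents, rose in HFD vs LFD (0.55 ± 0.15, limma adjusted p 0.017, band median 0.21) and in LFD-MTX50 vs LFD (0.70 ± 0.14, limma adjusted p 0.0043), and under quantile normalization it passed in the latter and not in the former (0.085). Of 7 reelin pathway genes tested, Crkl, an adaptor, fell in HFD vs LFD (-0.30 ± 0.10, limma adjusted p 0.035) and Dab1, the adaptor of the reelin receptors, in LFD-MTX50 vs LFD (-0.48 ± 0.14, limma adjusted p 0.022, and 0.054 under quantile normalization).

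The 10 fibrillar and basement membrane collagens had a median difference of 0.59 in HFD vs LFD and of -0.60 in HFD-MTX50 vs HFD. For all genes these medians were 0.08 and -0.04, and no band medians were taken off the collagens. In HFD vs LFD 2 of 10 rose and 0 fell. In HFD-MTX50 vs HFD 0 rose and 2 fell, and in LFD-MTX50 vs LFD 1 rose and 0 fell. Quantile normalization gave collagen medians of 0.46 and -0.47 and counts of 1 and 0, 0 and 2, and 0 and 0. Col1a2, a chain of type I collagen, rose in HFD by 0.86 ± 0.30 (limma adjusted p 0.043, and 0.055 under quantile normalization). Col6a2, a chain of type VI collagen, rose in HFD by 0.65 ± 0.13 (limma adjusted p 0.0047) and fell with methotrexate by 0.52 ± 0.12 (limma adjusted p 0.020), and Col3a1, type III collagen, fell with methotrexate on HFD by 1.45 ± 0.41 (limma adjusted p 0.034). Col1a1, named after its values were seen, had estimates of 1.29 ± 0.68 (limma adjusted p 0.16) and -1.61 ± 0.65 (limma adjusted p 0.10) in the same comparisons.

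Of 25 cross-linking and matrix genes 5 rose and 0 fell in HFD vs LFD, where 18% of all genes rose and 10.4% fell. In HFD-MTX50 vs HFD 2 rose and 3 fell, and in LFD-MTX50 vs LFD 4 rose and 2 fell. The medians of this list were 0.25, -0.22 and 0.04, beside 0.08, -0.04 and 0.10 for all genes. Bgn, the proteoglycan biglycan, rose in HFD by 1.41 ± 0.22 (limma adjusted p 0.0025) and in LFD-MTX50 by 1.12 ± 0.21 (limma adjusted p 0.0026). Plod2, a lysyl hydroxylase of collagen, rose in HFD by 0.96 ± 0.15 (limma adjusted p 0.0025), as did Lamc1, a laminin chain (0.76 ± 0.17, limma adjusted p 0.0078), and Plod1 fell in LFD-MTX50 vs LFD by 1.05 ± 0.30 (limma adjusted p 0.018). Loxl1 and Loxl2, relatives of Lox that also cross-link matrix, are named after their values were seen. Loxl1 rose in HFD by 0.53 ± 0.12 (limma adjusted p 0.0071) and fell with methotrexate by 0.61 ± 0.11 (limma adjusted p 0.0082). Loxl2 rose in HFD by 0.55 ± 0.18 (limma adjusted p 0.029) and fell with methotrexate by 0.57 ± 0.17 (limma adjusted p 0.039), and these 4 calls held under quantile normalization.

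Among 21 other proteases and inhibitors 3 rose and 1 fell in HFD vs LFD, 2 rose and 1 fell in HFD-MTX50 vs HFD, and 7 rose and 1 fell in LFD-MTX50 vs LFD. Reck, a membrane inhibitor of metalloproteinases, fell in HFD-MTX50 vs HFD by 0.94 ± 0.16 (limma adjusted p 0.0067), and Mmp15, a membrane-bound metalloproteinase, fell in LFD-MTX50 vs LFD by 0.95 ± 0.19 (limma adjusted p 0.0043). Mmp8, the neutrophil collagenase, rose in LFD-MTX50 vs LFD by 2.22 ± 0.58 (limma adjusted p 0.014) and Mmp3, stromelysin, by 1.65 ± 0.56 (limma adjusted p 0.037, and 0.15 under quantile normalization), but they were above background on 8 and 6 of the 18 arrays.

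Portal fibroblast and mesothelial markers, with 1 of 10 risen and 0 fallen in HFD vs LFD (Gpm6a, 0.69 ± 0.22, limma adjusted p 0.027, and 0.16 under quantile normalization), had a median of 0.31 for the diet, -0.36 for methotrexate on HFD and 0.08 for methotrexate on LFD. They summed to 2.63 to 3.27 in LFD, 3.03 to 4.06 in HFD, 2.13 to 3.18 in LFD-MTX50 and 2.19 to 6.27 in HFD-MTX50. Of these 8 were above background on all arrays, and Upk3b on none in HFD-MTX50. Adipocyte markers summed to 0.452 to 0.615 in LFD, 4.28 to 6.79 in HFD, 0.594 to 0.986 in LFD-MTX50 and 0.710 to 1.68 in HFD-MTX50, all 6 above background on all arrays, and 3 of 6 rose in HFD vs LFD, led by Cfd (5.99 ± 0.92, limma adjusted p 0.0025). Kupffer cell and macrophage markers summed to 47.4 to 66.3 in LFD, 35.6 to 60.4 in HFD, 36.5 to 45.5 in LFD-MTX50 and 58.0 to 82.8 in HFD-MTX50, with 10 of 11 above background on all arrays and Gpnmb on none in LFD. Of these 11 markers 0 rose and 1 fell in HFD vs LFD (median -0.03), and 0 rose and 0 fell in HFD-MTX50 vs HFD (median 0.51). In LFD-MTX50 vs LFD 1 rose and 2 fell, and the median was 0.32 although the sums were lower. The brightest genes weigh most in such sums. The part of these cells in the differences of the 10 genes was not tested.

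Of the remaining lists, 0 of 10 sinusoidal endothelial, 0 of 10 neutrophil, 2 of 8 lymphocyte, 0 of 7 cholangiocyte, 0 of 5 platelet and 0 of 8 hepatocyte markers rose in HFD vs LFD, and in the same order 0, 1, 0, 1, 0 and 2 fell. In LFD-MTX50 vs LFD, again in this order, 0, 3, 3, 2, 1 and 1 markers rose and 0, 1, 0, 0, 0 and 0 fell, and under quantile normalization 0, 1, 0, 1, 1 and 2 rose. In HFD-MTX50 vs HFD 0, 0, 0, 1, 0 and 1 rose and 1, 0, 1, 0, 1 and 0 fell. The endothelial gene among these was Pecam1, an adhesion molecule of endothelium (-0.40 ± 0.11, limma adjusted p 0.028). The median of the 10 endothelial markers in that comparison was above 0, at 0.19. Under quantile normalization it was 0.16, and 1 marker rose and 1 fell. Summed hepatocyte markers were 1045 to 1253 in LFD, 932 to 1086 in HFD, 1180 to 1364 in LFD-MTX50 and 827 to 1268 in HFD-MTX50.

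**Figure D4:**
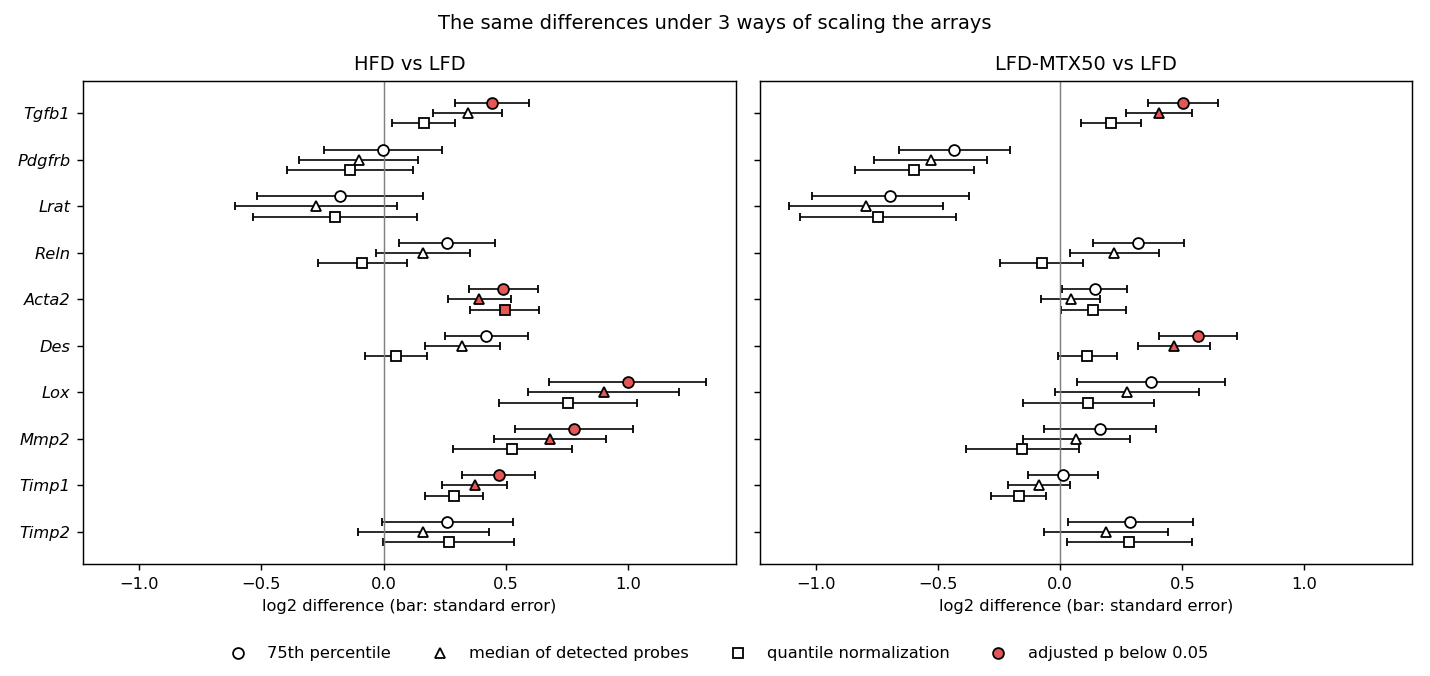
Log2 differences (horizontal axes, with standard errors) of the 10 genes (vertical axis) in HFD vs LFD and LFD-MTX50 vs LFD under 3 ways of scaling the arrays, with red symbols for an adjusted p below 0.05. Acta2 lies between 0.39 and 0.50 in HFD vs LFD and is red under all 3, while Des goes from 0.56 to 0.11 in LFD-MTX50 vs LFD under quantile normalization.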

How the data were processed

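Per the file headers, the deposited intensities were read by the authors with Agilent Feature Extraction 10.7.3.1, which subtracted the local background and detrended each array without scaling arrays to each other. The deposited value table holds the background-subtracted intensity of the same scans, and no column of either kind went unmapped. The methods name GeneSpring, a p of at most 0.015, whose test and adjustment they do not give, and a 2-fold change, and the array layout uses older gene coordinates that are not printed.

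From these files the log2 processed intensity minus the array's 75th percentile was computed. Outlier spots were left out and repeated spots averaged. A probe was kept if well above background on 4 or more arrays, which 35739 of 39429 were. RefSeq accessions named a gene for 71.1% of the probes. The 4 groups were fitted in 1 model with limma 3.58.1 (R 4.3.3), with p-values adjusted after Benjamini-Hochberg over these probes and calls at an adjusted p below 0.05. The exact permutation tests of single genes were 2-sided. The probe with the highest mean signal stands for a gene, whose band is the whole log2 unit of its mean level. The limma step was tested on simulated data.

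The 10 genes, the other lists and the tests were chosen with earlier results of these data known. Other list genes were named by a rule, up to 4 per list with the largest difference among those called, besides markers that moved with a member and the 3 genes nearest to each called member. Of the genes this rule names, 1 is not reported here. Alternatives covered background correction, scaling, the value table, outlier spots, filters, the variance model, the arrays fitted, an unmoderated equal-variance test, thresholds, the slide, the replicate number, the probe and each array left out. For normexp the median spot signal was used, since the files read hold no mean signal. Replicate numbers were not used to pair mice, because same-numbered arrays deviated together with correlations of -0.31 to 0.25. The slide was modelled as a random block with a correlation of 0.262 (statmod 1.5.0).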

Additional observations from a re-analysis of the deposited data

Results flagged for a closer look

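The effect of methotrexate differed between the diets, by a test of the difference itself (limma, HFD mice minus LFD mice), for Des (-0.94), Reln (-0.77), Tgfb1 (-0.67) and the second Timp2 probe (-1.0). Of all genes 18.1% differed in that direction. The medians of genes of similar brightness were -0.63 for Des and Reln, -0.49 for Tgfb1 and -0.36 for the second Timp2 probe. Under quantile normalization none of the 4 differences passed. LFD and LFD-MTX50 share no slide, so in the lean part of these differences slide and treatment cannot be told apart. With slides as random blocks Des passed (limma adjusted p 0.047). Reln (0.11), Tgfb1 (0.10) and the second Timp2 probe (0.072) did not.

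Of 40 groups of 4 or 5 mice examined over the 10 genes, 2 held an animal far from the others, where chance gives about 1 in 20. Both were LFD replicate 4, which was lowest for Lox, with a gap of 0.879 of the group's range, and highest for Timp2, with a gap of 0.835, where the limit for 4 samples is 0.829.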

How the results depend on the processing

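In HFD vs LFD the 5 calls became 0 with normexp background modelling, 1 with quantile normalization, 0 under either 2-fold threshold and 0 when slides were modelled as random blocks, and 0 to 6 with 1 array left out (0 without LFD replicate 2, HFD replicate 3 or HFD replicate 4). In HFD-MTX50 vs HFD the count was 0 under every alternative run and 0 to 1 with 1 array left out. The 2 calls of LFD-MTX50 vs LFD became 0 with normexp, quantile normalization, either 2-fold threshold and the slide block, 1 with probes above background on all 18 arrays, where Des was not tested, and 1 to 2 with 1 array left out (1 without LFD replicate 2). The 3 differences between diets became 0 with normexp, quantile normalization and either 2-fold threshold, 1 with the slide block, and 1 to 5 with 1 array left out (1 without LFD replicate 2, HFD replicate 3 or HFD replicate 4). An unmoderated equal-variance test per probe with Benjamini-Hochberg adjustment gave 4, 0 and 2 calls. With a replicate block the counts were 4, 0, 2 and 3, but the numbers do not pair the mice.

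Signs changed with normexp for Lrat (0.0068) and Pdgfrb (0.45) in HFD vs LFD, for Des (1.35), Pdgfrb (0.30), Tgfb1 (1.00), Mmp2 (0.74), Lox (0.73) and Reln (1.15) in HFD-MTX50 vs HFD, for Pdgfrb in LFD-MTX50 vs LFD (0.19) and for the Timp1 difference between diets (-0.10). This setting moved the median of all probes to 0.54, 0.52 and 0.67 in the 3 comparisons. Quantile normalization turned Reln in HFD vs LFD (-0.086) and Timp1 (-0.17), Mmp2 (-0.16) and Reln (-0.076) in LFD-MTX50 vs LFD, centring on detected probes turned Timp1 there (-0.086), and the slide block turned Pdgfrb in HFD vs LFD (0.041). With 1 array left out Lrat ranged from -0.44 to 0.094 in HFD vs LFD and from -0.43 to 0.10 in HFD-MTX50 vs HFD, Pdgfrb from -0.13 to 0.074 in HFD vs LFD and from -0.038 to 0.28 in the difference between diets, and Timp1 from -0.054 to 0.082 in LFD-MTX50 vs LFD. None of these turned values had passed in the fit reported. The second probes of Timp2 and Lox were read as an alternative chosen after seeing the data. The cause of these changes was not tested.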
